A study of Saccharomyces cerevisiae with 2 samples.

Results

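The genes described here build the small, 40S subunit of the yeast ribosome. A list of 55 gene names of the small-subunit processome and of the later 40S assembly steps was matched to the gene names of 2 RNA-Seq libraries, and 54 of them were found among 6716 named genes. The remaining name, DBP4, had no entry of its own. Its locus YJL033W is listed under the older name HCA4, an RNA helicase, and is given separately.

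The 18S rRNA of the 40S subunit is cut out of a long precursor made by RNA polymerase I in the nucleolus. The processome assembles on that precursor as it is made: the UTP-A and UTP-B complexes bind its leader, the U3 small nucleolar RNA pairs with it, and cleavage, folding and base modification follow. A smaller pre-40S particle then leaves for the cytoplasm, where the last cut is made. In budding yeast these genes are known to be transcribed together, strongly in growing cells and weakly when nutrients run short.

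YHJ7, a haploid derived from a Chinese rice wine (Huangjiu) isolate and labelled wild type, was compared with BY4741, a MATa laboratory strain derived from S288c. The labels write the rice wine strain as YHJ8 and give BY4741 the alleles his△1, leu2△0, lys2△0 and ura3△0. Both strains were grown in 25 ml of YPD, a rich glucose medium, from an OD600 of 0.05, and RNA was taken at early stationary phase. Each strain has 1 poly(A) library that pools 2 biological replicates, so the spread between replicates is unknown, the differences below are between single libraries, and no p-value is given. The strain of each library was taken from its column headings, although each table is attached to the sample of the other strain. LEU2, URA3 and MET17, a gene also deleted in the usual description of BY4741, had 473, 768 and 240 fragments in the library taken as YHJ7 and 0 in that taken as BY4741. HIS3 had 715 fragments in YHJ7 and 548 in BY4741, and LYS2 had 830 in YHJ7 and 1348 in BY4741, so the lys2 deletion that the label gives BY4741 was not seen.

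The libraries held 8168419 fragments on named genes in YHJ7 and 10218976 in BY4741. Each of the 54 genes had at least 130 fragments in YHJ7 and at least 65 in BY4741, with a median of 587 in YHJ7 and 350 in BY4741. Levels are given as FPKM, fragments scaled to the length of the transcript and by a factor of the library. Under that factor 1 fragment counts as 1.253 in YHJ7 and 0.797 in BY4741. The factor is not the total of fragments, and for every gene it sets YHJ7 higher against BY4741 than shares of the total fragments do. A difference is log2(FPKM + 1) in YHJ7 minus that in BY4741, on which low genes look less changed than they are, and a difference of 1 or more in size is called 2-fold. A ratio is FPKM in YHJ7 over FPKM in BY4741, with an exact 95% interval that covers counting error only.

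All 54 genes had a higher FPKM in YHJ7 than in BY4741, and 42 of them were at least 2-fold higher. Among all named genes, 12.4% were at least 2-fold higher in YHJ7 and 49.6% were higher by any amount. None of the 54 genes was 2-fold lower, against 9.84% of all named genes. The median difference of the 54 genes was 1.33, with the middle part of the list between 1.04 and 1.61, and the median of all named genes was 0. The difference spanned 0.32 for RIO2, an ATPase of the last pre-40S steps, to 3.09 for SNU13, a protein of the U3 particle. RNA came from whole cultures, so more of these mRNAs in every cell and more cells still making them cannot be told apart. Strain and state of growth at harvest cannot be told apart either.

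**Figure D1:**
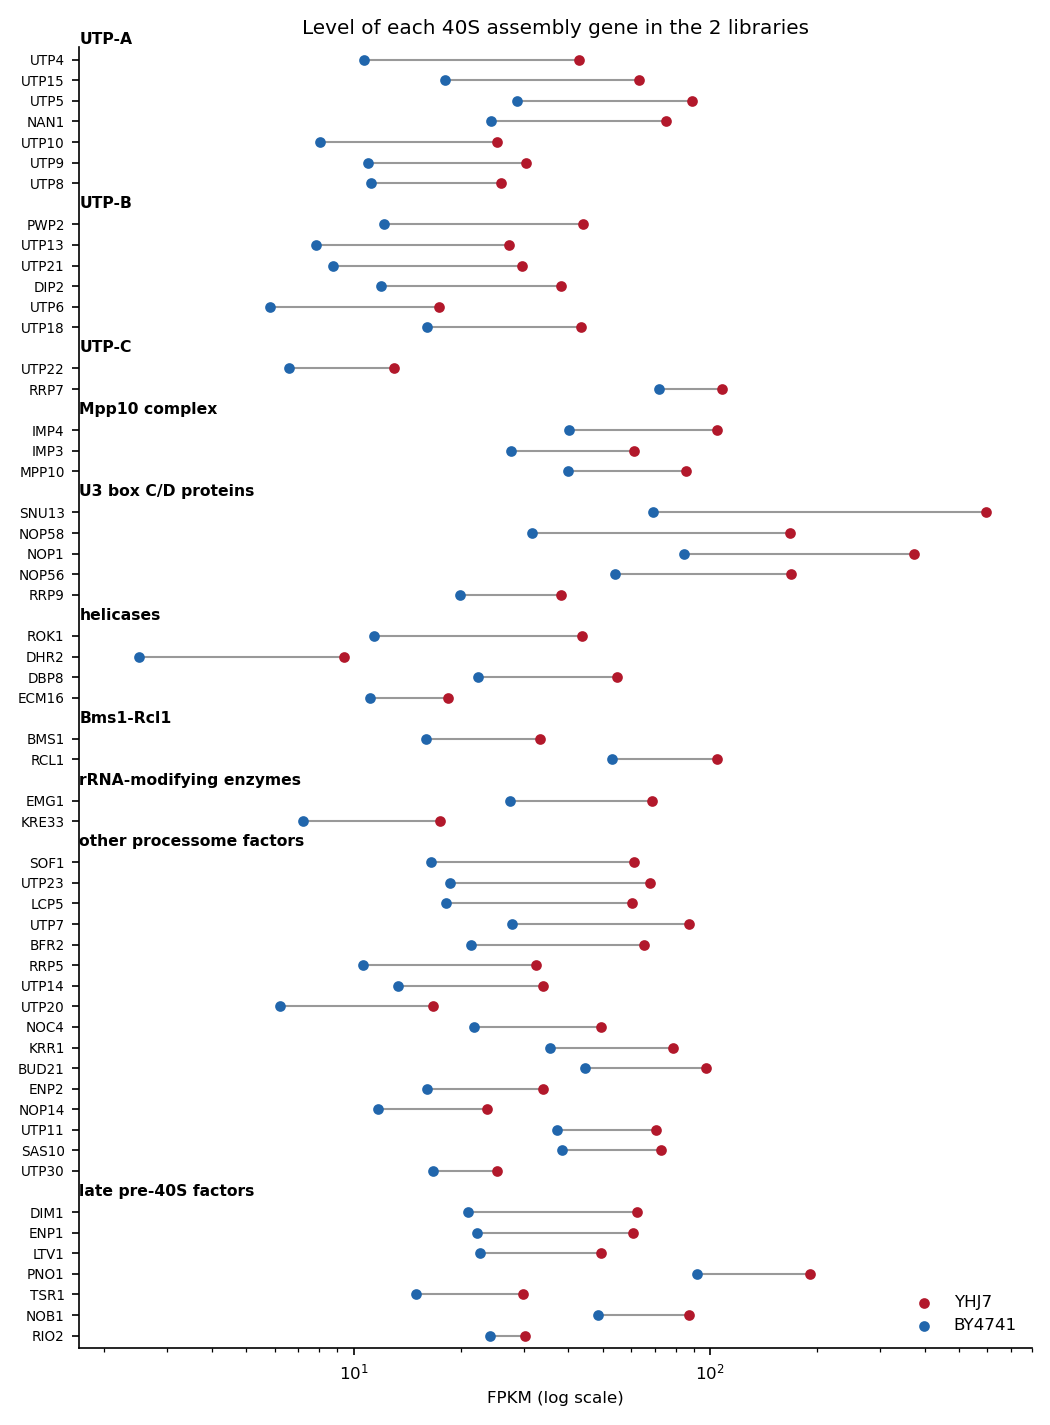
FPKM of the 54 genes on a log scale, grouped by complex or role and ordered by difference within each group. Red points are the YHJ7 library and blue points the BY4741 library. The red point lies to the right of the blue one for every gene, by the widest distance for SNU13 (594 FPKM in YHJ7 and 69.1 FPKM in BY4741).

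The counting interval of the ratio lay above 1 for all 54 genes and above 2 for 33. On the FPKM scale, which the intervals take as exact, the shift was therefore larger than counting error for each gene. This says nothing of the spread between cultures. No such counts of intervals are given for all named genes. Genes outside the list also had intervals clear of 1, such as TUB1 (1.65 to 1.90) and CDC19 (0.298 to 0.318). By share of the fragments on named genes RIO2 was not higher in YHJ7, with 269 of 8168419 there and 337 of 10218976 in BY4741. At least 4-fold higher on the difference scale were 3 genes, SNU13, NOP58 and NOP1, and 2.74% of all named genes. Another 39 genes differed by 1 to 2 and 12 by less than 1. The call of 11 genes was close, with a difference within 0.1 of the 2-fold limit on either side. By the ratio of FPKM itself, 43 genes reached 2, a count that is not given for all named genes.

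**Figure D2:**
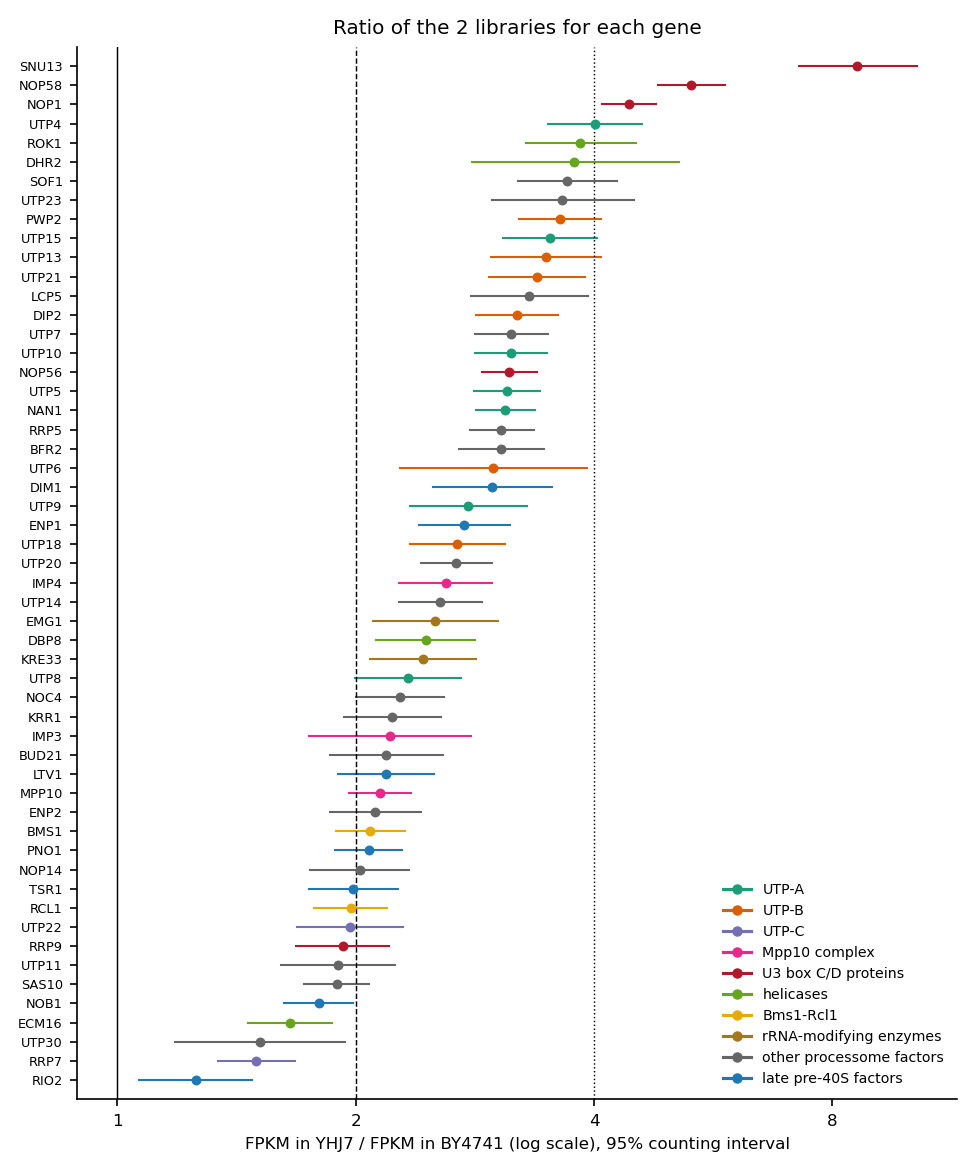
Ratio of FPKM in YHJ7 to FPKM in BY4741 for the 54 genes on a log scale, with bars for the 95% counting interval and colours for the complex or role. All bars lie to the right of 1 (solid line), and those of SNU13, NOP58 and NOP1 lie wholly beyond 4 (dotted line).

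The 54 genes moved up the ranking of all genes. Their median level stood at the percentile 55.5 of all named genes in YHJ7 and at 29.4 in BY4741. In YHJ7, 33 of them lay above the median level of all genes, against 10 in BY4741. Below the percentile 25 of all genes lay 2 in YHJ7 and 19 in BY4741. Together they took 38464 fragments, 0.471% of the YHJ7 library (0.466 to 0.476, exact 95% binomial interval), and 22212 fragments, 0.217% of the BY4741 library (0.215 to 0.220). The order of the genes by level was much alike in both strains, with a Spearman correlation of 0.92 across the 54 genes. Genes of 1 pair of libraries are not independent replicates, and no p is given. The difference had no clear relation to gene length (rho 0.04) or to the level in BY4741 (rho -0.13).

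**Figure D3:**
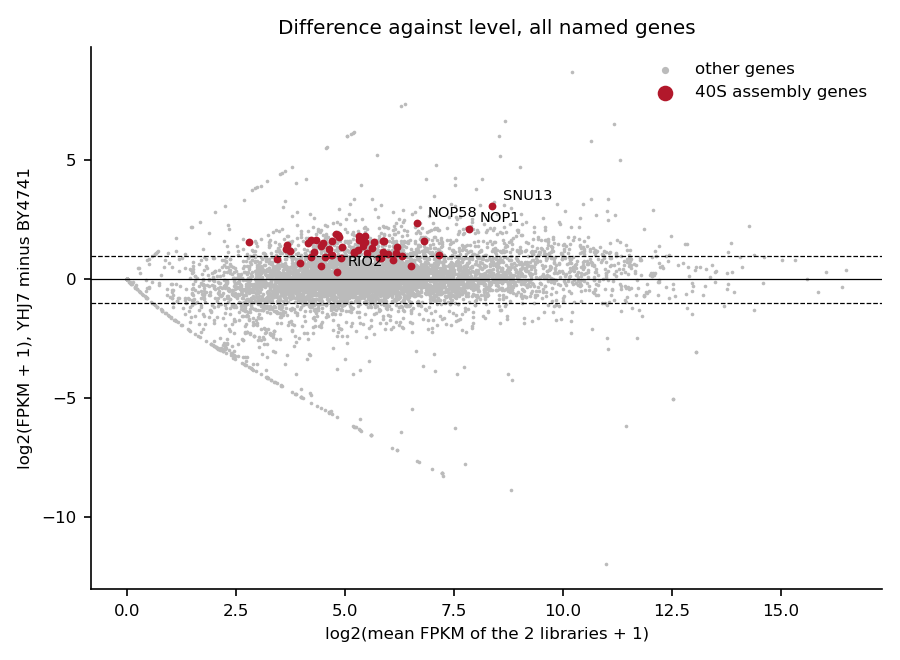
Difference in log2(FPKM + 1), YHJ7 minus BY4741, against the log2 of the mean FPKM + 1 of both libraries, for all 6716 named genes. The 54 genes of 40S assembly (red) all lie above 0 at middle levels, and grey points along the outer diagonals are genes listed at 0 in 1 of the libraries.

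All positions are those of the R64 reference (sacCer3). The genes lie on 13 chromosomes, 33 on the plus strand and 21 on the minus strand. Only KRR1 lies within 30 kb of a chromosome end. The median length of their deposited loci is 1664 bases, against 1251 for all named genes, from 381 for SNU13 to 7482 for UTP20.

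Promoters are shown because the genes were higher together. Yeast ribosome assembly genes are known to carry the PAC element, bound by the repressors Dot6 and Tod6, and the RRPE element, bound by Stb3. The letters GATGAG (PAC core) and GAAAATTT (RRPE core) were searched on both strands in the 250 bases before and the 50 bases after each start codon, in the reference genome, which is the S288c sequence and not that of YHJ7. The PAC core was in 49 of the 54 promoters (90.7%) and in 20.4% of 6001 promoters of all genes. The RRPE core was in 29 (53.7%), against 8.17% of all promoters. Both were in 27 (50%), against 3.08%. EMG1, UTP22 and UTP30 had neither, as had 74.6% of all promoters. A match is a description of these letters, not evidence of a bound site, and divergent neighbours share such windows.

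Before the start codon, the first base of a PAC match had a median position of -108 (range -229 to -55, 72 matches) and that of an RRPE match -129.5 (range -222 to -32, 40 matches). The PAC match of UTP4 lay after the start, at position 6. In 25 of the 54 promoters (46.3%) both cores fell within a span of 60 bases, against 2.15% of all promoters. Stretches from 8 of these promoters follow, read on the strand of the gene with both cores in capitals. They are from the genes of largest difference with such a pair, from 1 gene each of UTP-A, UTP-B, the late pre-40S factors and the GTPase pair, and from the 2 such genes with the smallest differences.
SNU13: gaatgaGATGAGttaGAAAATTTttcact
NOP58: ttcaacCTCATCGAAAATTTTCagaa
UTP10: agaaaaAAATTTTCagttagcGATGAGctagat
DIP2: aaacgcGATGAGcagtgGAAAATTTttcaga
ENP1: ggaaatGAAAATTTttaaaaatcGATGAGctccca
BMS1: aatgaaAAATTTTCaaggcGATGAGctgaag
SAS10: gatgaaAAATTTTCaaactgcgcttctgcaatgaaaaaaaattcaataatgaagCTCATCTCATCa
ECM16: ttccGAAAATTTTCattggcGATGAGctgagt
CTCATC and AAATTTTC are the cores read on the other strand, and GAAAATTTTC holds the RRPE core on both strands. In SAS10 a pair of PAC cores overlap. The stretch of SNU13 is chrV:101744-101772 (plus strand), that of NOP58 chrXV:898463-898488 (minus), that of UTP10 chrX:217398-217430 (minus) and that of DIP2 chrXII:399524-399554 (plus). That of ENP1 is chrII:714564-714598 (minus), that of BMS1 chrXVI:143266-143296 (minus), that of SAS10 chrIV:183097-183162 (minus) and that of ECM16 chrXIII:523552-523583 (plus). The genes of these 8 stretches ran from the largest difference of all, 3.09 in SNU13, to 0.68 in ECM16. Stretches were chosen among genes that hold the pair. The 3 genes of smallest difference, RIO2, UTP30 and RRP7, do not hold it. Genes of large difference lack it too, among them NOP1, UTP4, ROK1 and SOF1, at 2.13, 1.91, 1.85 and 1.83.

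**Figure D4:**
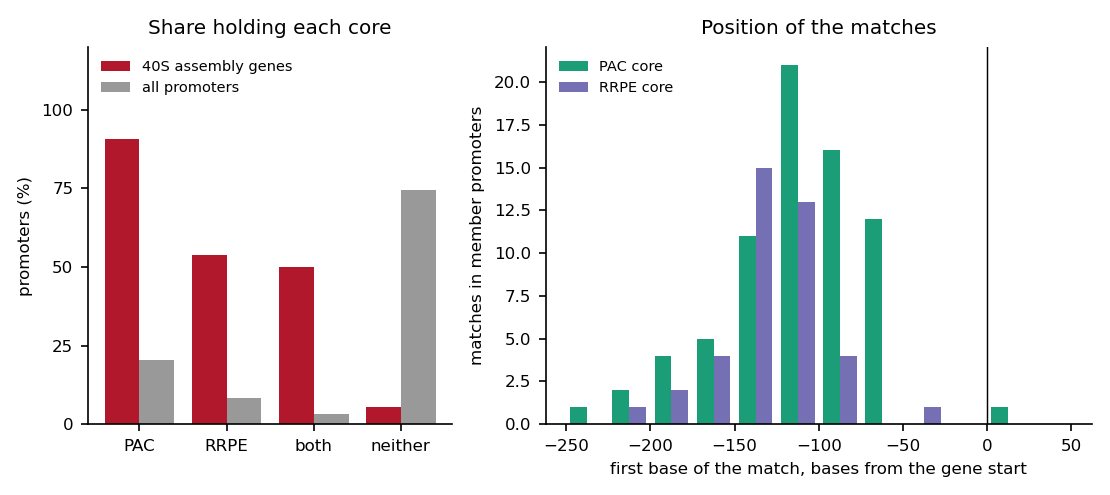
Left, percent of promoters that hold the PAC core, the RRPE core, both or neither, for the 54 genes (red) and for all 6001 promoters (grey). Right, position of the first base of each match in the promoters of the 54 genes, in bases from the start codon, in bins of equal width; most PAC and RRPE matches lie upstream of the start near -108 and -129.5, the median positions.

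The median difference was 1.41 in the 27 genes with both cores, 1.31 in the 22 with the PAC core alone and 0.88 in the 3 with neither. RRP7 and UTP15 had the RRPE core alone, with differences of 0.58 and 1.76. Of these, 24 of 27, 16 of 22, 1 of 3 and 1 of 2 were at least 2-fold higher in YHJ7. Genes outside the list, from which other ribosome assembly genes were not removed, had a median difference of 0.84 with both cores. Of these 157 genes, 46.5% were at least 2-fold higher. With the PAC core alone the median of genes outside the list was 0.07, and 13.8% of 1014 were 2-fold higher. With the RRPE core alone it was 0.15, and 15.3% of 301 were. With neither it was -0.03, and 9.55% of 4459 were. Whether the cores bear on the differences was not tested.

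UTP-A is the complex that binds the leader of the precursor first. All 7 of its genes were at least 2-fold higher in YHJ7, with a median difference of 1.59. UTP4 (YDR324C, chrIV:1114433-1116763, minus strand), a WD40-repeat protein, had 42.9 FPKM (754 fragments) in YHJ7 and 10.7 FPKM (296 fragments) in BY4741, a ratio of 4.01 (3.50 to 4.60) and a difference of 1.91. It was the gene with the largest difference in the complex. UTP15, another WD40-repeat protein, had 63.3 FPKM in YHJ7 and 18.0 in BY4741. UTP5, also of the WD40 family, had 89.1 FPKM in YHJ7 and 28.7 in BY4741, the highest level of the complex in either strain. NAN1, also called UTP17, had 75.1 and 24.3 FPKM in YHJ7 and BY4741. These 3 genes had differences of 1.76, 1.60 and 1.59. UTP10, a long repeat protein with one of the promoters shown, had 25.3 FPKM in YHJ7 and 8.06 in BY4741. UTP9 had 30.4 FPKM in YHJ7 and 11.0 in BY4741. The smallest difference was that of UTP8, a protein also known for its part in tRNA export. UTP8 had 26.0 FPKM (416 fragments) in YHJ7 and 11.2 FPKM (281 fragments) in BY4741, a ratio of 2.33 (2.00 to 2.72).

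UTP-B joins the leader after UTP-A and contacts the U3 RNA. Its 6 genes were all at least 2-fold higher, with differences in a narrow range of 1.37 to 1.77 and a median of 1.62. PWP2, a scaffold with tandem WD40 domains, had 44.0 FPKM (932 fragments) in YHJ7 and 12.1 FPKM (405 fragments) in BY4741, a ratio of 3.62 (3.22 to 4.08). UTP18, which recruits the exosome, had 43.3 FPKM (566 fragments) in YHJ7 and 16.1 FPKM (331 fragments) in BY4741, a ratio of 2.69 (2.34 to 3.09). These were the largest and the smallest differences of the complex, and on the FPKM scale their counting intervals lay above 2. The WD40-repeat proteins UTP13, UTP21 and DIP2 had 27.2, 29.6 and 38.2 FPKM in YHJ7 and 7.84, 8.75 and 12.0 FPKM in BY4741. UTP6, a helical repeat protein, had the lowest level, with 17.4 FPKM (161 fragments) in YHJ7 and 5.84 FPKM (85 fragments) in BY4741. Its interval was accordingly wide, at 2.28 to 3.92.

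UTP-C gave smaller differences. Neither of its 2 genes on the list was 2-fold higher on the difference scale, and neither promoter held the PAC core. UTP22 had 12.9 FPKM (375 fragments) in YHJ7 and 6.59 FPKM (300 fragments) in BY4741, a ratio of 1.97 (1.68 to 2.30) and a difference of 0.88. RRP7, which binds UTP22, had 108 FPKM (616 fragments) in YHJ7 and 72.0 FPKM (647 fragments) in BY4741, a ratio of 1.50 (1.34 to 1.67). Its difference of 0.58 was the third lowest of all 54 genes, and its level in BY4741 was the third highest. The other subunits of UTP-C, which are not on the list, spread widely. The 4 subunits of casein kinase 2, which also acts on many other proteins, had differences of -0.01 (CKA1), 0.18 (CKA2), -0.16 (CKB1) and 0.05 (CKB2). RRP36 had 26.4 FPKM in YHJ7 and 7.14 in BY4741, a difference of 1.75.

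The Mpp10 complex helps the U3 RNA to pair with the precursor. All 3 genes were called 2-fold higher, MPP10 within 0.1 of the limit. IMP4, an RNA-binding Brix-domain protein, had 104 FPKM (578 fragments) in YHJ7 and 40.2 FPKM (350 fragments) in BY4741, a ratio of 2.60 (2.27 to 2.97). MPP10 had 85.6 FPKM (1116 fragments) in YHJ7 and 39.9 FPKM (818 fragments) in BY4741, a ratio of 2.15 (1.96 to 2.35) and a difference of 1.08. IMP3, a relative of a 40S ribosomal protein, had 61.2 FPKM in YHJ7 and 27.7 in BY4741, and its interval of 1.75 to 2.80 included 2.

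The proteins of the U3 box C/D particle had the largest differences. Apart from the U3-specific RRP9, they are shared by all box C/D particles, which guide methylation of rRNA. Their summed fragments made up a 3.24 times larger share of the library in YHJ7 than in BY4741 (3.10 to 3.38), against 2.17 times for all 54 genes (2.13 to 2.20). These are shares of total fragments, a scale that gives lower values than the FPKM ratios of single genes that follow. SNU13 (YEL026W, chrV:101943-102323, plus strand), which binds the kink-turn of the guide RNA and is also part of the spliceosome, had 594 FPKM (880 fragments) in YHJ7 and 69.1 FPKM (161 fragments) in BY4741. Its ratio of 8.59 (7.26 to 10.2) was the highest of the list, and its mean level was as well. NOP58 (YOR310C, chrXV:896825-898360, minus strand), a core protein, had 168 FPKM (1847 fragments) in YHJ7 and 31.6 FPKM (547 fragments) in BY4741, a ratio of 5.31 (4.82 to 5.85). NOP1 (YDL014W, chrIV:427364-428347, plus strand), the methyltransferase fibrillarin, had 374 FPKM (2414 fragments) in YHJ7 and 84.5 FPKM (857 fragments) in BY4741, a ratio of 4.43 (4.10 to 4.79). The intervals of these 3 genes lay above 4. With the same total FPKM the difference of NOP1 was 1.92, under the 4-fold limit. NOP56, the partner of NOP58, had 169 FPKM in YHJ7 and 54.0 in BY4741, a difference of 1.63. RRP9 had 38.3 FPKM (480 fragments) in YHJ7 and 19.9 FPKM (392 fragments) in BY4741, a ratio of 1.93 (1.68 to 2.21) and a difference of 0.91. RRP9 thus stood well below the shared core proteins, with an interval that did not overlap any of theirs.

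Among the RNA helicases, which unwind RNA as the particle matures, 3 of 4 were at least 2-fold higher. ROK1, a DEAD-box helicase that acts on snR30, had 43.8 FPKM (540 fragments) in YHJ7 and 11.4 FPKM (221 fragments) in BY4741, a ratio of 3.84 (3.28 to 4.51). DHR2 had the lowest level of all 54 genes, with 9.43 FPKM (156 fragments) in YHJ7 and 2.50 FPKM (65 fragments) in BY4741. Its ratio of 3.77 had an interval of 2.81 to 5.12, the widest of the list on the log2 scale. DBP8, another DEAD-box helicase, had 54.7 FPKM in YHJ7 and 22.3 in BY4741. ECM16, the helicase that removes U3 from the precursor, had 18.4 FPKM (546 fragments) in YHJ7 and 11.1 FPKM (520 fragments) in BY4741. Its ratio was 1.65 (1.46 to 1.87) and its difference 0.68, the fourth lowest of the list. The promoter of ECM16 holds both cores. HCA4, the entry for DBP4, had 40.3 FPKM (701 fragments) in YHJ7 and 16.0 FPKM (439 fragments) in BY4741, a ratio of 2.51 (2.23 to 2.84). It would have been a further gene called 2-fold higher, but is not in the counts.

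BMS1, a GTPase, and RCL1, the protein it brings into the processome, lay on either side of the 2-fold limit. BMS1 had 33.3 FPKM (921 fragments) in YHJ7 and 16.0 FPKM (694 fragments) in BY4741, a ratio of 2.09 (1.89 to 2.31). RCL1 had 104 FPKM (777 fragments) in YHJ7 and 53.0 FPKM (620 fragments) in BY4741, a ratio of 1.97 (1.77 to 2.19). Their intervals overlap and both include 2. Both enzymes that modify 18S rRNA were called higher. EMG1, a methyltransferase, had 68.9 FPKM (317 fragments) in YHJ7 and 27.4 FPKM (198 fragments) in BY4741, a ratio of 2.52 (2.10 to 3.02). KRE33, a cytidine acetyltransferase, had 17.5 FPKM (428 fragments) in YHJ7 and 7.19 FPKM (277 fragments) in BY4741, a ratio of 2.43 (2.08 to 2.84).

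Of 16 other processome factors, 12 were at least 2-fold higher, with a median difference of 1.22. SOF1, a WD40-repeat protein, had 61.2 FPKM (640 fragments) in YHJ7 and 16.5 FPKM (272 fragments) in BY4741, a ratio of 3.70 (3.21 to 4.28). UTP23, which acts with the small nucleolar RNA snR30, had 67.8 FPKM in YHJ7 and 18.6 in BY4741, a difference of 1.81. LCP5 had 60.3 FPKM in YHJ7 and 18.2 in BY4741, and its binding partner BFR2 had 65.2 in YHJ7 and 21.4 in BY4741. Their differences were 1.67 for LCP5 and 1.57 for BFR2. UTP7, a WD40-repeat protein, had 87.2 FPKM in YHJ7 and 27.8 in BY4741. RRP5, a long RNA-binding protein that serves both subunits, had 32.4 FPKM in YHJ7 and 10.6 in BY4741, a difference of 1.53. UTP14, the activator of the helicase encoded by ECM16, had 34.0 FPKM in YHJ7 and 13.3 in BY4741. UTP20, the longest gene of the list, had 16.7 FPKM in YHJ7 and 6.23 in BY4741. Both had a difference of 1.29.

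NOC4 had 49.6 FPKM in YHJ7 and 21.8 in BY4741, and NOP14, which binds it, had 23.7 in YHJ7 and 11.7 in BY4741. NOC4 was above the limit, at a difference of 1.15, and NOP14 just under it, at 0.96. KRR1, an RNA-binding KH-domain protein, had 78.9 FPKM in YHJ7 and 35.5 in BY4741. BUD21 and ENP2 had 97.3 and 34.1 FPKM in YHJ7 and 44.5 and 16.1 in BY4741. These 3 genes were above the limit, at 1.13, 1.11 and 1.04. UTP11 and SAS10 had 70.6 and 72.7 FPKM in YHJ7 and 37.2 and 38.4 in BY4741, and were under the limit, at 0.91 and 0.90. UTP30, which yeast can grow without, had 25.3 FPKM (130 fragments) in YHJ7 and 16.7 FPKM (135 fragments) in BY4741, a ratio of 1.51 (1.18 to 1.94). Its difference of 0.57 was the second lowest of the list, and its promoter held neither core.

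The late pre-40S factors had a median difference of 1.05, and 4 of 7 were at least 2-fold higher. DIM1, which dimethylates adenines near the end of 18S rRNA, had 62.3 FPKM (388 fragments) in YHJ7 and 20.9 FPKM (205 fragments) in BY4741, a ratio of 2.98 (2.51 to 3.54). ENP1, which joins early and leaves late, had 60.7 FPKM in YHJ7 and 22.1 in BY4741, a difference of 1.41. LTV1, which binds the same part of the particle, had 49.5 FPKM in YHJ7 and 22.7 in BY4741. PNO1, the partner of NOB1, had 191 FPKM in YHJ7 and 91.9 in BY4741, the highest level of the list in BY4741. TSR1, a GTPase-like protein, lay just under the limit, with 29.8 FPKM in YHJ7 and 15.0 in BY4741. NOB1, the nuclease of the last cut, had 87.0 FPKM (846 fragments) in YHJ7 and 48.5 FPKM (741 fragments) in BY4741, a ratio of 1.80 (1.62 to 1.98) that lay wholly under 2. RIO2 (YNL207W, chrXIV:255353-256630, plus strand) had 30.3 FPKM (269 fragments) in YHJ7 and 24.1 FPKM (337 fragments) in BY4741, a ratio of 1.26 (1.07 to 1.48). It was the smallest difference of the 54 genes.

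Overlapping loci limit 5 values. NOP56, NOP58, RRP9, SAS10 and PNO1 share their deposited locus with an open reading frame, and whether the counting used strand is not given in the sources used here. The overlapping entries held 12.2 fragments in YHJ7 and 10.9 in BY4741 for NOP56 (YLR198C) and 40.8 in YHJ7 and 13.7 in BY4741 for NOP58 (YOR309C). For RRP9 (YPR136C) they held 38.0 in YHJ7 and 46.3 in BY4741, and for SAS10 (YDL152W) 30.8 in YHJ7 and 18.9 in BY4741. For PNO1 (YOR146W) they held 113 in YHJ7 and 82.8 in BY4741, the most of the 5. Reads of a gene and of the entry that overlaps it, on the same strand for NOP58 and on the other strand for the remaining 4, cannot be told apart. Without these 5 genes, 39 of 49 were at least 2-fold higher and the median difference was 1.35.

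Genes that work beside the list are given by counts. Of 34 other 40S assembly factors, 12 were at least 2-fold higher in YHJ7, with a median difference of 0.66 from -0.31 (SQS1, which stimulates the helicase Prp43) to 2.75 (NSR1, a nucleolin). The subunits of casein kinase 2 and RRP36, given above with UTP-C, are counted among them. NSR1 had 628 FPKM in YHJ7 and 92.3 in BY4741. The helicases HAS1 and PRP43 had differences of 2.13 and 1.86. The 4 proteins of H/ACA particles, which guide pseudouridylation, had a median of 1.12, from 0.59 (NOP10) to 1.69 (CBF5), and 3 were 2-fold higher. Of 65 assembly factors of the large, 60S subunit, 52 were 2-fold higher, with a median of 1.37 from -0.08 (JIP5) to 2.50 (NOG2). The 54 genes of the small subunit had a median of 1.33, with 42 at least 2-fold higher. Of 13 genes of RNA polymerase I and its core factor, counted with RRN3, 7 were 2-fold higher, with a median of 1.39 from -0.35 (RRN7) to 2.26 (RRN11).

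Genes for 40S ribosomal proteins all had a higher FPKM in YHJ7, 29 of 57 by 2-fold, with a median of 1.02 from 0.15 (RPS16A) to 2.87 (RPS28B). With the same total FPKM 17 were 2-fold higher and the median was 0.80. By share of fragments only RPS16A was lower in YHJ7, with 1631 there and 2316 in BY4741. Many are near-identical pairs of copies, so the split of reads between copies is uncertain. Genes for the small subunit of the mitochondrial ribosome had a median of 0.19, from -0.56 (RSM22) to 0.76 (RSM26), and none of 31 was 2-fold higher. Among 12 reference genes the median was -0.05, from -1.70 (CDC19, pyruvate kinase) to 0.82 (TUB1), with 1 at least 2-fold lower and none 2-fold higher. Among 16 stress genes, which are high in cells short of nutrients, the median was -0.06, from -1.62 (SSA4, a heat shock protein) to 1.65 (GPH1, glycogen phosphorylase), of which 1 was 2-fold higher and 2 were 2-fold lower. With the same total FPKM the medians were -0.27 for the reference genes and -0.27 for the stress genes. By share of fragments the stress gene HSP104 was also more than 2-fold lower, with 8198 in YHJ7 and 22251 in BY4741. So were the reference genes PGK1 and TFC1. The part of growth state in the values of the 54 genes was not tested.

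**Figure D5:**
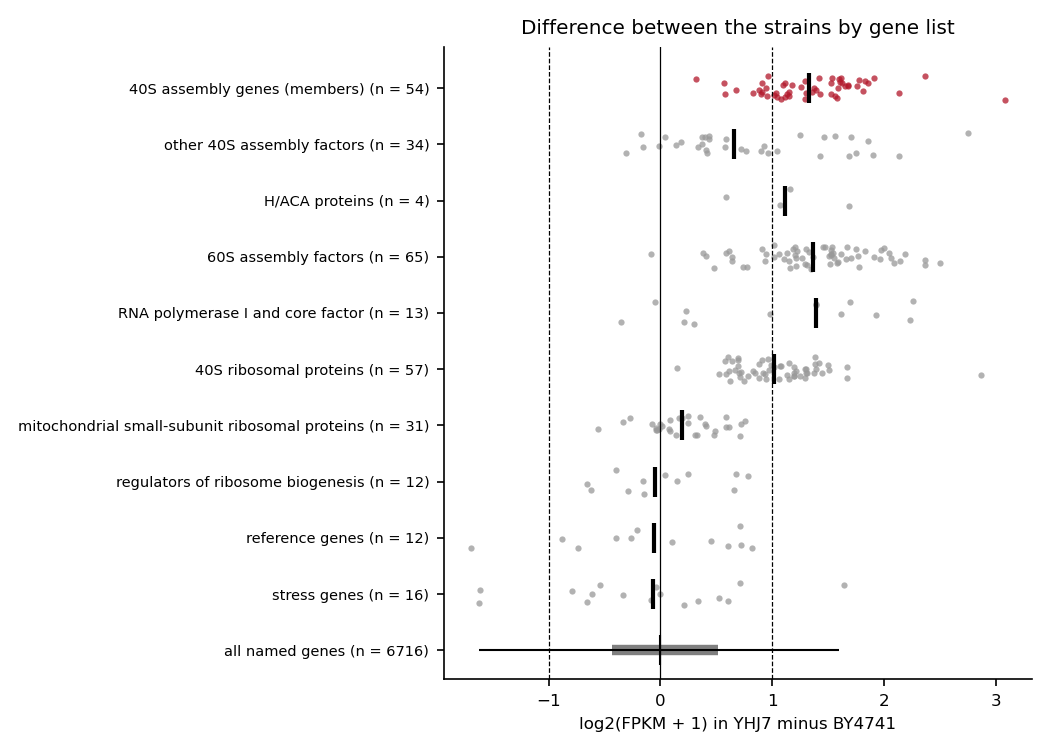
Difference in log2(FPKM + 1), YHJ7 minus BY4741, of each gene of 10 lists, with a vertical bar at each median and dashed lines at the 2-fold limits. For all 6716 named genes the thick bar covers the middle part from -0.44 to 0.51 and the thin line the percentiles 5 to 95; the 54 genes (red, median 1.33) and the 60S assembly factors (median 1.37) lie furthest to the right among the lists of over 50 genes.

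On the FPKM scale none of 12 known regulators of ribosome assembly genes or of ribosomal protein genes differed by 2-fold. SFP1, an activator, had 41.8 FPKM in YHJ7 and 37.5 in BY4741, a difference of 0.15. SCH9, the kinase that acts on Dot6, Tod6 and Stb3 in yeast, had 24.7 FPKM in YHJ7 and 39.6 in BY4741, the lowest difference of the 12 at -0.66. By share of the fragments on named genes SCH9 was more than 2-fold lower, with 463 of 8168419 in YHJ7 and 1167 of 10218976 in BY4741. STB3, the repressor that binds RRPE, had 51.1 FPKM in YHJ7 and 79.1 in BY4741, a difference of -0.62. The PAC repressors DOT6 and TOD6 were higher in YHJ7, with differences of 0.66 and 0.68. DOT6 had 226 FPKM in YHJ7 and 143 in BY4741, and TOD6 had 39.2 in YHJ7 and 24.1 in BY4741. The kinases TOR1 and TOR2 had differences of -0.29 and -0.16. The regulators of ribosomal protein genes had differences of 0.78 (IFH1), 0.25 (RAP1), 0.04 (HMO1), -0.14 (FHL1) and -0.39 (CRF1). Repressors of the 2 elements thus lay on both sides of 0, and mRNA levels say nothing of the activity of these proteins.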

How the data were processed

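RNA-Seq reads were mapped to the S288c genome (sacCer3) by the authors with TopHat2 2.0.4, and expression was estimated with Cufflinks 2.0.2. The authors deposited FPKM per gene and a count per gene divided by a factor of the library, which is a scaled signal and not a raw count; no count test was run. The value of 1 fragment was read from the counts as the largest step that left a share of whole multiples at most 0.1 below the best one, 1.253 in YHJ7 and 0.797 in BY4741. Of values above 0, 80.3% and 80.2% lay within 0.05 of a whole multiple. Intervals of the ratio are exact conditional binomial (Clopper-Pearson) and were tested on simulated data. An entry with no name held 0.309% of the YHJ7 counts and 0.806% of the BY4741 counts and was left out. Fold changes, p-values and q-values in the authors' table of comparisons are their own results and were not used; its FPKM levels served as an alternative.

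Of the named genes, 6026 were found in the R64 annotation of RefSeq, and 99.4% of them lay inside their deposited locus. Coordinates are 1-based. Full values are given for the genes of highest and lowest difference in each role, the 5 highest and 5 lowest of all, and those of highest and lowest mean level; of other lists, the extremes and all regulators. Genes named beyond these, such as casein kinase 2, RRP36, HAS1 and PRP43, were chosen after their values were seen. Members, lists and motifs were chosen with earlier results of these data known. Alternatives covered the pseudocount, scaling, the table used, overlap, thresholds, the step and the promoter window. Python 3.11.15, NumPy 2.4.6, pandas 2.3.3, SciPy 1.17.1 and matplotlib 3.10.9 were used.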

Additional observations from a re-analysis of the deposited data

How the results depend on the processing

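All 54 genes were higher in YHJ7 and none was 2-fold lower with a pseudocount of 0.1 or 10. The same held with the libraries brought to an equal total FPKM and with differences centred on the median of genes of mean FPKM of at least 10. It also held for the 48 genes with a locus of their own in the authors' table of comparisons and for the 49 without an overlap. Scaling to an equal total of fragments was not run, and by share of fragments RIO2 was not higher in YHJ7. The count at least 2-fold higher was 25 with a pseudocount of 10, where 9.37% of all genes were, and 3 at the 4-fold limit. It was 43 with a pseudocount of 0.1 (13.1% of all genes), 39 after centring (11.4%), 36 of 48 in the other table (11.6%) and 31 with the same total FPKM, where 8.99% of all genes were. The median difference was 0.97 with a pseudocount of 10 and 1.12 with the same total FPKM. That scaling moved the median of all genes to -0.19, and the median of the mitochondrial small-subunit genes to -0.02. The medians of the reference genes, the stress genes and the regulators became -0.27, -0.27 and -0.26. Of 264 values of single genes under 5 settings, 190 moved by less than the half-width of their counting interval, 74 by more and 0 changed sign, with values from 0.11 to 3.10. With the other step, 54 and 36 intervals lay above 1 and 2. In the 250 bases before the start alone, 88.9% of the promoters held the PAC core and 53.7% the RRPE core, against 17% and 7.77% of all promoters.

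No paired analysis was possible because a single library stands for each strain, and for the same reason no replicate could be left out. Depth limits the shorter and weaker genes: the half-width of the interval ran from 0.11 to 0.43 on the log2 scale.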
